A study of Mus musculus with 48 samples.

Results

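RNA-seq of the striatum was compared between 8 mice with the Q140 allele that are labelled as lacking both Msh3 alleles (Het (Q140) KI X Msh3-/-, here Q140 x Msh3-/-) and 8 mice with the Q140 allele and Msh3 intact (labelled Het (Q140) KI, here Q140). These 16 libraries were picked by their genotype label from the 48 libraries of the series, which hold 6 genotypes with 4 females and 4 males each. Both groups were heterozygous for Q140, a knock-in of the mouse Htt gene with an expanded CAG repeat, and both were on a C57BL/6 background. The 8 Msh3-/- mice and the 8 WT mice, which carry no Q140 allele, were used to see what the same loss did without it. An age of 12 months is given for all groups, but the protocol for RNA extraction mentions 6 months, and which of these holds is uncertain. How the Msh3 alleles were inactivated is not given in the sources used here, and the labels do not say which mice were littermates. The sample names start with a code whose meaning is not given. There are 27 codes over the 48 libraries and 15 over these 16, of which 1 is shared by both groups.

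Huntington's disease is caused by a CAG repeat in Htt that is too long, and the repeat keeps growing in some cells during life, above all in the spiny projection neurons of the striatum. MSH3 is a subunit of MutSbeta, a mismatch repair complex that binds the extra loops that slipped repeats form, and in mice lacking Msh3 the repeat grows far less. Spiny projection neurons are GABAergic output cells that express dopamine receptors and a cAMP signalling apparatus at high level, and they lose much of this expression in mice with long repeats, while genes that are normally silent in them, many of them Polycomb targets, are expressed.

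Sequences just before the starts of 6 genes with large changes are shown first, so that the values below can be read beside the DNA in front of the gene. They are the genes, out of 18 that were named outright or for the size of their change, lay apart between the groups and were not near Msh3, for which RefSeq and GENCODE M21 put the start at the same base and no protein-coding gene lies over the window. Onecut1, a homeobox transcription factor of embryonic development, Kazald1, a secreted protein, Pcdh20, a protocadherin, and Slc5a5, the sodium iodide symporter, were lower in Q140 x Msh3-/- mice. Vwa7, a protein with a von Willebrand factor A domain, and Mas1, a receptor for angiotensin 1-7, were higher. Each run is the 250 bases before the start, 5′ to 3′ on the gene's strand, from the RefSeq table for GRCm38.p6, and capitals mark each CG pair, the target of DNA methylation and a hallmark of CpG-rich promoters. The plus-strand regions are chr9:74861671-74861920 for Onecut1, chr19:45074991-45075240 for Kazald1 and chr17:35016329-35016578 for Vwa7, and the minus-strand regions are chr14:88471397-88471646 for Pcdh20, chr8:70892758-70893007 for Slc5a5 and chr17:12868144-12868393 for Mas1.
Onecut1: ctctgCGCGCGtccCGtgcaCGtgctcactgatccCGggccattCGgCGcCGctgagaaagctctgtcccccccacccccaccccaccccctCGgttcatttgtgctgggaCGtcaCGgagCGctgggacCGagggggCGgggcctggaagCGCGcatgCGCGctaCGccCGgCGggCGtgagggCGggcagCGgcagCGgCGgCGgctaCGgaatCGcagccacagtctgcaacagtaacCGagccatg
Kazald1: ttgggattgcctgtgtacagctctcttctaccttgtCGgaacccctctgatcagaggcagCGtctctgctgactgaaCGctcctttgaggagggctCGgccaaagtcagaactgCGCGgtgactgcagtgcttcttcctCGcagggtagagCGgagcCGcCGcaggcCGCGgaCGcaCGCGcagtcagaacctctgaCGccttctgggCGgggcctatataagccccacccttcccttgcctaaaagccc
Pcdh20: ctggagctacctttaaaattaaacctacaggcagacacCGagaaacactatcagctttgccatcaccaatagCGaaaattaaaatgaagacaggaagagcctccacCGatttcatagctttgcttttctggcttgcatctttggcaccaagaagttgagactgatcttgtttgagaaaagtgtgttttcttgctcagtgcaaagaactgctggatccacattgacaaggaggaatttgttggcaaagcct
Slc5a5: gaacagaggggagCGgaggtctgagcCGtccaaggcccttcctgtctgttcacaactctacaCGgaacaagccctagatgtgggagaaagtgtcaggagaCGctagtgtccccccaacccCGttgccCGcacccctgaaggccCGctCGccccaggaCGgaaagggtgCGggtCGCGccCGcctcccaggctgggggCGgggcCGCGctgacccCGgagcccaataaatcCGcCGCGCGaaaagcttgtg
Vwa7: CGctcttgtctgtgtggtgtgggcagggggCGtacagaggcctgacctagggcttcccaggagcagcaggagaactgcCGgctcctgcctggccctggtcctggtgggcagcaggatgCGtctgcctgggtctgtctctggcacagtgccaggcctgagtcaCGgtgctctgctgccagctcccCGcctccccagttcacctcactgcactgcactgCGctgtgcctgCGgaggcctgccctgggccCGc
Mas1: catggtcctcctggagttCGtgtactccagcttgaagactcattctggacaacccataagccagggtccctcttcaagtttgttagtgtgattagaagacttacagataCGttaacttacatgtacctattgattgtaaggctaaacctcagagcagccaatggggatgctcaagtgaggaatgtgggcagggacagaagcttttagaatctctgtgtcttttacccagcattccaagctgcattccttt
The Onecut1 run held 31 CG pairs, a number reached by 5.19% of the 32851 promoters in the table, and a long noncoding RNA gene, Gm20649, also spans it. The Slc5a5 run held 21, the Kazald1 run 17 and the Vwa7 run 9, against a median of 6 over all promoters. The Pcdh20 run held 3 and the Mas1 run 2. These counts describe 6 windows, with high and low numbers among the fallers, and promoters were not compared between gene groups, since the table held them for 76% of the protein-coding genes tested.

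Library totals, in units of 1000000 counts, ranged over 43.2 to 55.6 in Q140 x Msh3-/- and 45.7 to 53.9 in Q140 mice. Msh3, which encodes the mismatch repair protein itself, was examined first. Its level had a lowest, median and highest value of 103, 116 and 126 counts per 1000000 counts (CPM) in Q140 x Msh3-/- mice, against 28.5, 30.3 and 32.5 CPM in Q140 mice. The groups were apart, but the mice labelled as lacking Msh3 were the higher ones (log2 fold change 1.92, SE 0.0351, adjusted p = 1.88e-43). Counts summed over a gene do not tell whether its product works, so the genotypes here are those of the labels and all directions rest on them. Htt was at 227 ± 10.9 CPM in the Q140 x Msh3-/- mice, against 213 ± 11 CPM in the Q140 mice (SD, n = 8 each), which did not pass (log2 fold change 0.09, SE 0.034, adjusted p = 0.0512), although it passed, at 0.10 to 0.11, when Q140 x Msh3-/- mouse F1 or Q140 mouse F3, F4 or M2 was left out.

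The libraries expressed the markers of striatal spiny neurons at high level, with medians of 1825 CPM for Ppp1r1b (DARPP-32) in the Q140 x Msh3-/- mice and 1371 CPM in the Q140 mice. One feature set 3 of the Q140 x Msh3-/- mice apart. Slc17a7, the vesicular glutamate transporter of cortical excitatory neurons, stood at 64.3, 25.4 and 25.8 CPM in Q140 x Msh3-/- mice F2, F3 and M3, and at 13 CPM or less in the other 13 mice. Its own difference did not pass (log2 fold change 1.64, adjusted p = 0.0515). Of 12 cortical excitatory neuron markers 3 rose (Rspo1, Lamp5 and Neurod6) and 0 fell, which is 25% higher, against 8.75% of all genes tested. The summed level of the 12 ranged over 315 to 432 CPM in the Q140 x Msh3-/- mice and 311 to 328 CPM in Q140 mice. The part that cortical RNA plays in the results was not tested. Counts below are also given without these 3 libraries, a choice made after seeing the data. Q140 x Msh3-/- mouse M1 also stood apart, with a score of 0.59 on the first principal component of the 16 libraries, against −0.36 to 0.25 for the other 15, and without it 3158 genes passed.

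Losing both Msh3 alleles changed many genes of the Q140 striatum by small amounts. Of 19714 genes tested, 3217 passed (edgeR quasi-likelihood test, adjusted p under 0.05), which is 16.3%. Of these, 1725 were higher (8.75% of those tested) and 1492 lower (7.57%) in Q140 x Msh3-/- than in Q140 mice. The median size of the called changes was 1.15-fold, 337 genes differed at least 1.5-fold, and of the 134 that differed at least 2-fold, 108 were higher and 26 lower. The median log2 fold change of all genes tested was 0.0004. The 8 mice of one group all lay above the 8 of the other for 396 genes (2.01%) that were higher and 170 genes (0.862%) that were lower. Without the 3 libraries high in Slc17a7, 1873 genes passed, 1126 higher and 747 lower. When libraries were scaled by total counts alone the split was 1283 higher and 2869 lower, and the median of all genes moved by −0.036 on the log2 scale. With the code at the start of the sample name as a term, whose meaning the labels do not give, 637 passed, 481 higher and 156 lower, in a fit with 15 residual degrees of freedom. In that fit 25 of the 40 cAMP and dopamine signalling genes described below rose, against 481 of the 19714 genes tested. So did 5 of the 9 indirect-pathway markers, 2 of the 10 direct-pathway markers and 8 of the 41 potassium channel genes. Of the 35 calcium genes 9 rose, of the 38 glutamate genes 8 and of the 26 transcription factors 3.

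**Figure D1:**
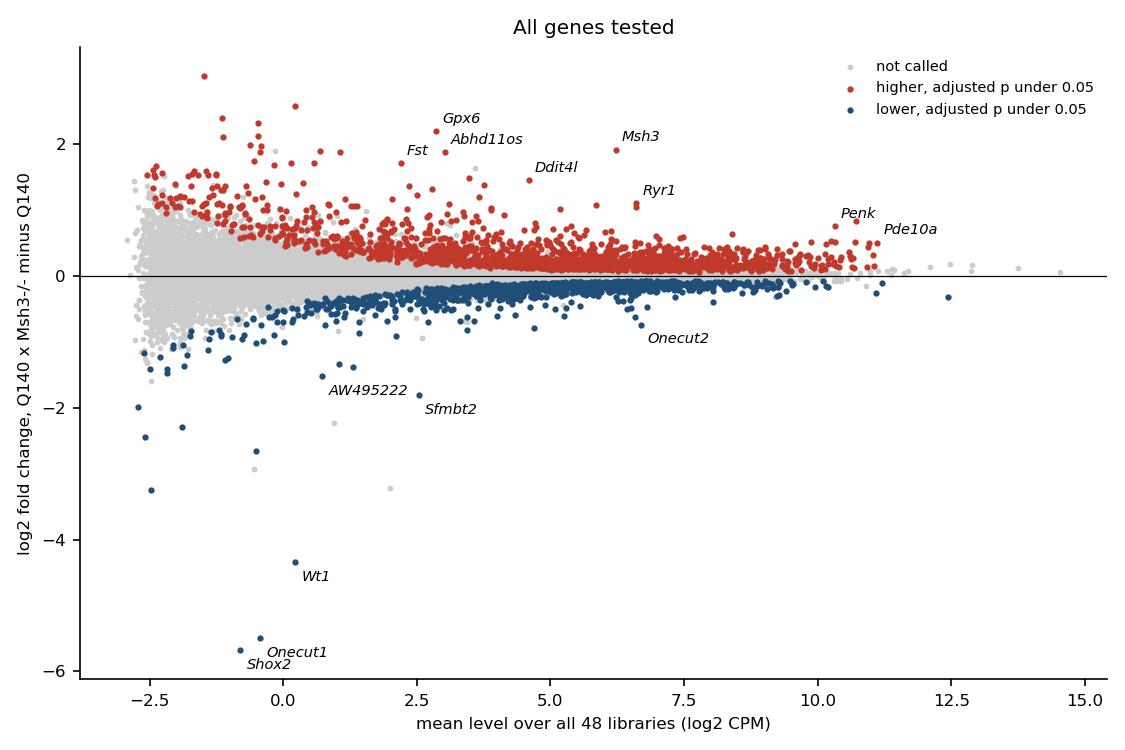
Log2 fold change of every gene tested, Q140 x Msh3-/- minus Q140, against its mean level over all 48 libraries on the log2 CPM scale, with 1725 genes called higher in red, 1492 called lower in blue and the others in grey. The far points below are Onecut1, Wt1 and Shox2 at −5.49, −4.33 and −5.68, and Msh3 itself lies at 1.92.

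The largest rises were in genes of low to moderate abundance. Gpx6 had a lowest, median and highest level of 3.47, 4.85 and 7.27 CPM in Q140 x Msh3-/- mice, against 0.607, 0.978 and 1.96 CPM in Q140 mice. No mouse of one group reached the range of the other (log2 fold change 2.20, SE 0.212, adjusted p = 1.29e-10). Its mean was 11.5 ± 3.3 CPM in Msh3-/- and 10.9 ± 1.85 CPM in WT mice (SD, n = 8 each), so the Q140 x Msh3-/- mice lay between the Q140 mice and the mice without Q140. Abhd11os, a long noncoding RNA that is high in the striatum, stood at 5.23, 8.4 and 10.4 CPM, against 1.17, 2.01 and 3.02 CPM in Q140 mice, also without overlap (1.88, SE 0.148, adjusted p = 6.35e-13). Fst encodes follistatin, which binds and blocks activins. Its levels were 4.38, 4.9 and 6.63 CPM in Q140 x Msh3-/- mice, against 0.936, 1.45 and 2.93 CPM in Q140 mice, again with every mouse higher (1.71, SE 0.148, adjusted p = 1.6e-12).

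Further rises without overlap between the groups were in Ddit4l, an inhibitor of mTOR signalling (1.46, SE 0.114), Slc4a11, a membrane transporter (1.38, SE 0.152), Sec14l3, a lipid-binding protein (1.49, SE 0.188), Vwa7 (1.32, SE 0.171) and Gm9754 (1.23, SE 0.206). For Wnt8b, a Wnt ligand of the developing forebrain (1.89, SE 0.391), Cyp2a5 (1.18, SE 0.185), Odf4 (1.17, SE 0.193) and Egr2 (1.21, SE 0.336), the ranges overlapped although all passed. Ddit4l averaged 19.3 ± 4.54 CPM in Q140 x Msh3-/-, 6.98 ± 1.14 CPM in Q140, 35 ± 2.8 CPM in Msh3-/- and 36.8 ± 2.63 CPM in WT mice (SD, n = 8 each).

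The deepest falls were in transcription factors of development whose RNA was nearly absent in Q140 x Msh3-/- mice. Onecut1 had 0 to 7 counts per library in Q140 x Msh3-/- mice, with a median level of 0.0473 CPM, against 60 to 243 counts and a median of 2.75 CPM in Q140 mice. In Msh3-/- mice it had 0 to 8 counts and in WT mice 0 to 3, so the Q140 mice alone stood out among these 4 groups. The log2 fold change was −5.49 (SE 0.43, adjusted p = 1.82e-13), and with counts this low its size depends on the fit. Wt1, a zinc finger factor of kidney and gonad development, had 0 to 27 counts per library in Q140 x Msh3-/- mice, against 70 to 411 counts in Q140 mice (−4.33, SE 0.445, adjusted p = 6.39e-10). Shox2, a homeobox factor of limb, heart and brain development, had a lowest, median and highest level of 0, 0.0419 and 0.0905 CPM, against 0.635, 2.37 and 6.04 CPM in Q140 mice (−5.68, SE 0.471, adjusted p = 6.35e-13). For all 3 genes the groups were apart.

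Among genes above a mean log2 CPM of 1, Sfmbt2 fell most. It encodes a Polycomb-group protein. Its levels were 2.66, 4.07 and 5.5 CPM (lowest, median, highest) in Q140 x Msh3-/- mice, against 10.6, 13.9 and 19.3 CPM in Q140 mice (−1.81, SE 0.135, adjusted p = 5.64e-14). Its mean was 2.68 ± 0.22 CPM in Msh3-/- and 2.75 ± 0.555 CPM in WT mice (SD, n = 8 each). Kazald1, a secreted protein with an immunoglobulin domain (−1.33, SE 0.132), Emx2os, a noncoding RNA antisense to Emx2 (−0.91, SE 0.121), Vwa5b2 (−0.79, SE 0.093), Slc5a5, the sodium iodide symporter (−0.69, SE 0.119), and Trim17, a ubiquitin ligase (−0.62, SE 0.11), fell without overlap. Dsp, which encodes the desmosomal protein desmoplakin (−1.38, SE 0.2), BC030499 (−0.86, SE 0.182) and AW551984 (−0.67, SE 0.24, adjusted p = 0.0476) fell with overlapping ranges. AW551984 kept its call when Q140 x Msh3-/- mouse M2 or M3 or Q140 mouse M1 was left out, and lost it without any one of the other 13 mice.

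**Figure D2:**
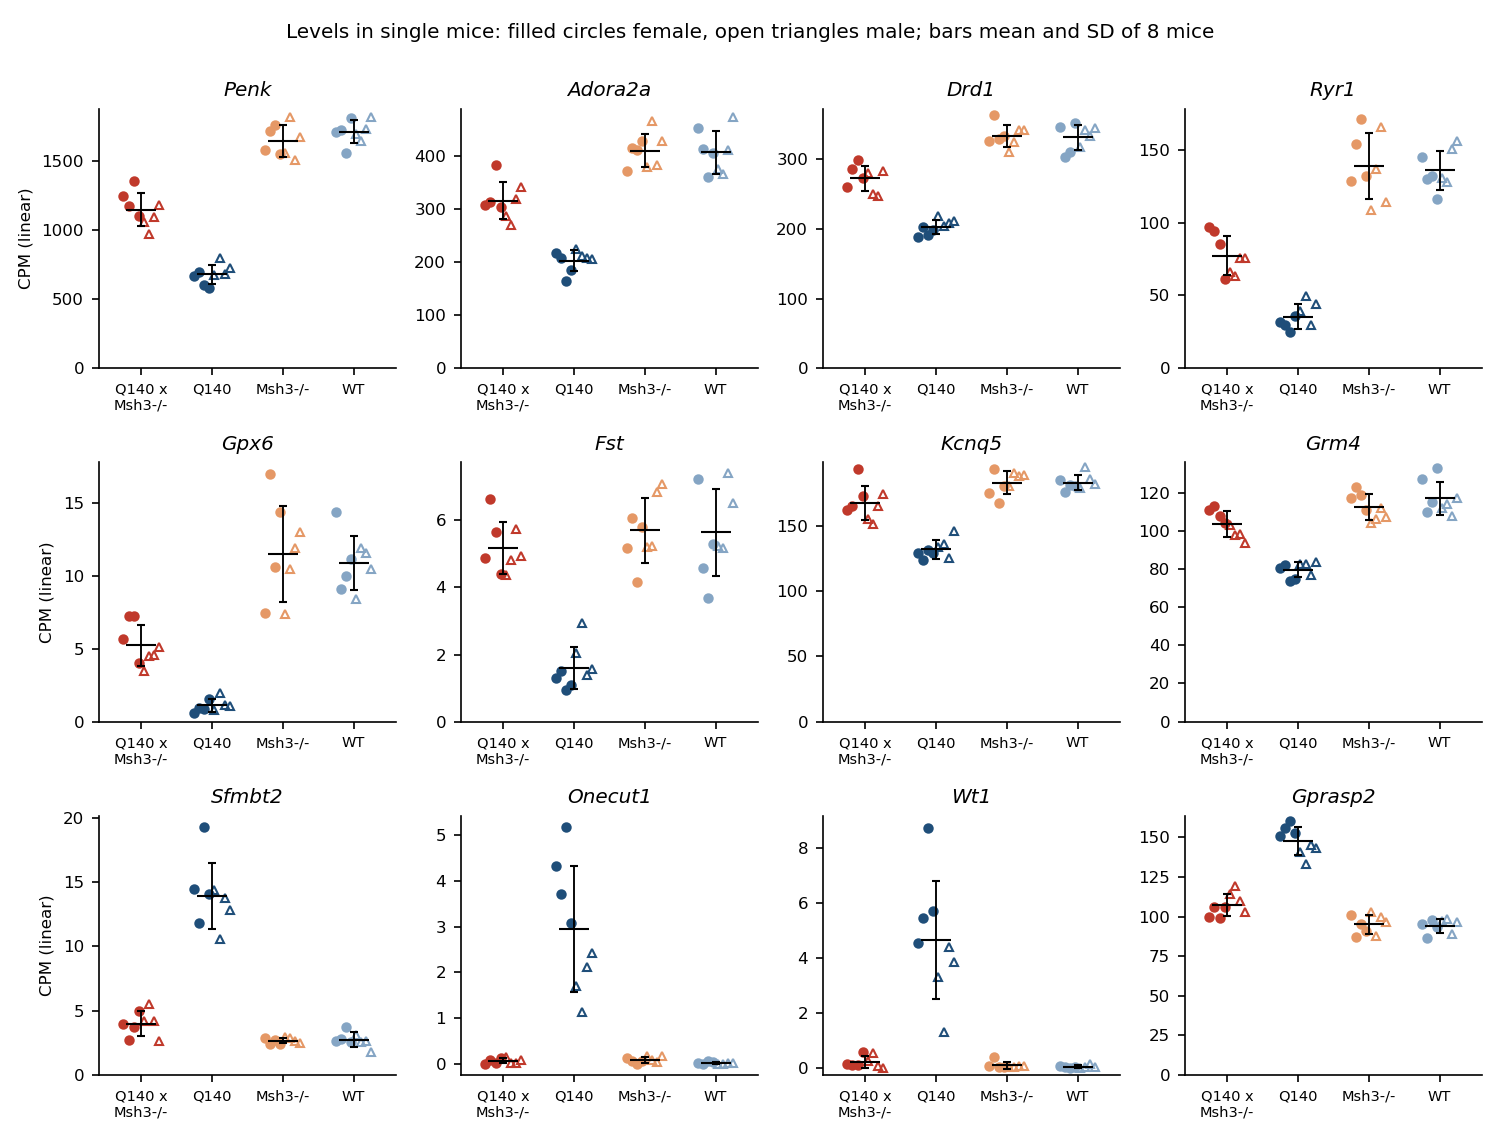
Levels of 12 genes on a linear CPM axis in each of the 8 Q140 x Msh3-/-, 8 Q140, 8 Msh3-/- and 8 WT mice, with females as filled circles, males as open triangles and the mean and SD as black bars. In each panel the Q140 x Msh3-/- mice are apart from the Q140 mice. For Sfmbt2, Onecut1 and Wt1 they lie near the mice without Q140. For Fst they lie within the WT range, at 4.38 to 6.63 CPM against 3.69 to 7.41 CPM. The ranges of Adora2a, Kcnq5 and Grm4 also overlap those of the WT mice.

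Genes of cAMP and dopamine signalling in spiny neurons rose together. Of 40 tested, 34 rose (85%, against 8.75% of all genes) and 1 fell, with a median log2 fold change of 0.30 against 0.0004 for all genes. In 18 of the 40 every Q140 x Msh3-/- mouse was above every Q140 mouse, which held for 2.01% of all genes. Adcy5, the main adenylyl cyclase of the striatum, had a lowest, median and highest level of 1414, 1582 and 1847 CPM in Q140 x Msh3-/- mice, against 1057, 1091 and 1172 CPM in Q140 mice. Pde10a, a phosphodiesterase that breaks down cAMP and cGMP, had levels of 1658, 1990 and 2268 CPM, against 1285, 1406 and 1476 CPM in Q140 mice. Both were apart between the groups (0.52, SE 0.0391, adjusted p = 1.23e-14, and 0.51, SE 0.0454, adjusted p = 1.6e-12). Arpp21, a phosphoprotein of the same pathway (0.51, SE 0.047), and Ppp1r1b, an inhibitor of protein phosphatase 1 (0.44, SE 0.0404), were also apart. For each of these 4 genes the mean of the Q140 x Msh3-/- mice lay between those of the Q140 and the WT mice. Pde10a, for one, averaged 1984 ± 195 CPM in Q140 x Msh3-/-, 1391 ± 60.1 CPM in Q140 and 2739 ± 117 CPM in WT mice (SD, n = 8 each). The gene that fell was Prkar1b, a regulatory subunit of protein kinase A (−0.16), and Prkaca, a catalytic subunit, did not pass (−0.03). Leaving out the 3 libraries high in Slc17a7, 29 of the list rose and 1 fell.

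Markers of the 2 kinds of spiny neuron were examined separately. Of 9 indirect-pathway markers 7 rose (77.8%, against 8.75% of all genes) and 0 fell, with a median log2 fold change of 0.41. Penk, the enkephalin precursor, had a lowest, median and highest level of 973, 1136 and 1356 CPM in Q140 x Msh3-/- mice, against 582, 676 and 800 CPM in Q140 mice. Adora2a, a receptor for adenosine, had levels of 269, 311 and 383 CPM, against 164, 208 and 224 CPM in Q140 mice. Neither gene overlapped between the groups (0.76, SE 0.0534, adjusted p = 6.85e-15, and 0.64, SE 0.0645, adjusted p = 2.99e-10), and every mouse with Q140 was below the means of the mice without it. For Penk these means were 1644 ± 113 CPM in Msh3-/- and 1710 ± 83.9 CPM in WT mice, and for Adora2a 410 ± 31.4 CPM and 407 ± 40.1 CPM in the same order (SD, n = 8 each). Drd2, the D2 dopamine receptor, averaged 241 ± 24.7 CPM in the Q140 x Msh3-/- mice, against 179 ± 8.46 CPM in the Q140 mice, and the orphan receptor Gpr6 averaged 75 ± 4.24 CPM and 56.3 ± 3.46 CPM in the same order (SD, n = 8 each), both without overlap. Once the 3 libraries high in Slc17a7 were left out, 5 of the 9 rose.

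Of 10 direct-pathway markers 4 rose (40%, against 8.75% of all genes) and 0 fell, with a median of 0.00. Drd1, the D1 dopamine receptor, had a lowest, median and highest level of 248, 277 and 299 CPM in Q140 x Msh3-/- mice, against 189, 204 and 218 CPM in Q140 mice. Chrm4, the M4 muscarinic receptor, had levels of 69, 73.5 and 78 CPM, against 44.3, 51 and 55 CPM in Q140 mice. Both were apart (0.43, SE 0.0416, adjusted p = 2.46e-11, and 0.54, SE 0.0443, adjusted p = 2.34e-13), while Slc35d3, a transporter needed for D1 receptor traffic (0.23, SE 0.0527), and Pdyn, the dynorphin precursor (0.25, SE 0.0757, adjusted p = 0.0185), rose with overlap. Pdyn did not pass when Q140 x Msh3-/- mouse M1 (0.20) or Q140 mouse F3 (0.22) was left out. The other 6, among them the substance P precursor Tac1 (−0.08) and the homeobox gene Isl1 (−0.05), did not pass.

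Transcription factors of spiny neurons moved less. Of 26 tested, 11 rose (42.3%, against 8.75% of all genes) and 0 fell, with a median of 0.13. Bcl11b, also called Ctip2, a factor needed for spiny neuron identity, had a lowest, median and highest level of 443, 497 and 548 CPM in Q140 x Msh3-/- mice, against 377, 408 and 428 CPM in Q140 mice (0.28, SE 0.0396, adjusted p = 4.17e-07). Foxo1 (0.39, SE 0.0522) and the retinoic acid receptor gene Rarb (0.27, SE 0.051) were likewise apart, and Meis2 overlapped (0.18, SE 0.0352). With total counts, or without the 3 libraries high in Slc17a7, 6 of the 26 rose.

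Potassium channels and their subunits rose or did not pass. Of 41 tested, 19 rose (46.3%, against 8.75% of all genes) and 0 fell, with a median of 0.14. Kcnq5, a subunit of the M current that restrains firing, had a lowest, median and highest level of 151, 165 and 193 CPM in Q140 x Msh3-/- mice, against 124, 130 and 146 CPM in Q140 mice, without overlap (0.34, SE 0.0375, adjusted p = 5.59e-10). Kcnip2, an accessory subunit of A-type channels (0.44, SE 0.0506), Kcna4, a channel of that type (0.26, SE 0.0325), and Kcnj4, an inward rectifier (0.36, SE 0.0519), were also apart. The mean of Kcna4 was 107 ± 6.4 CPM in Q140 x Msh3-/-, 89.5 ± 3.6 CPM in Q140, 108 ± 4.62 CPM in Msh3-/- and 106 ± 4.87 CPM in WT mice (SD, n = 8 each). In the fit that omits the 3 libraries high in Slc17a7, 15 of the 41 rose.

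Genes of calcium entry, release and response mostly rose or did not pass. Of 35 tested, 20 rose (57.1%, against 8.75% of all genes), 2 fell (5.71%, against 7.57%) and 13 did not pass, with a median of 0.14. Without the 3 libraries high in Slc17a7, 11 rose and 1 fell. Ryr1, a calcium release channel of the endoplasmic reticulum, moved most. Its levels were 61.2, 75.9 and 96.8 CPM (lowest, median, highest) in Q140 x Msh3-/- mice, against 24.6, 33.9 and 49.4 CPM in Q140 mice, with no overlap (1.11, SE 0.127, adjusted p = 9.98e-09). It averaged 139 ± 22.7 CPM in Msh3-/- and 136 ± 13.1 CPM in WT mice (SD, n = 8 each). Ppp3ca, the catalytic subunit of calcineurin (0.32, SE 0.0381), Camk2b, a calcium/calmodulin kinase (0.27, SE 0.0317), and Hpca, the calcium sensor hippocalcin (0.36, SE 0.0435), rose without overlap. The channel subunit genes Cacna2d1 (−0.18) and Cacna1a (−0.10) were the 2 that fell.

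Of 38 glutamate receptor and postsynaptic scaffold genes 15 rose (39.5%, against 8.75% of all genes) and 2 fell (5.26%, against 7.57%), with a median of 0.11. Grik2, a kainate receptor subunit, had a lowest, median and highest level of 137, 150 and 161 CPM in Q140 x Msh3-/- mice, against 97.4, 108 and 115 CPM in Q140 mice. Shank3, a scaffold of excitatory synapses, had levels of 448, 465 and 517 CPM, against 315, 360 and 429 CPM in Q140 mice. Both were apart (0.46, SE 0.0446, adjusted p = 1.6e-11, and 0.39, SE 0.04, adjusted p = 7.78e-11), as were Grm4, a metabotropic receptor (0.38, SE 0.0393), and Dlg4, which encodes PSD-95 (0.22, SE 0.0313). The AMPA receptor genes Gria1 (0.02) and Gria2 (0.01) and the NMDA receptor gene Grin1 (0.04) did not pass, and the scaffolds Homer2 (−0.22) and Shank2 (−0.14) were the 2 that fell. With total counts 4 of the 38 fell, against 2869 of the 19714 genes tested.

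Genes of GABA signalling moved little, with 1 of 22 higher and 1 lower and a median of 0.01. Each is 4.55%, against 8.75% higher and 7.57% lower over all genes. The riser was Gabrd, the delta subunit of extrasynaptic GABA-A receptors, at 101, 114 and 124 CPM (lowest, median, highest) in Q140 x Msh3-/- mice, against 75, 82.2 and 86.9 CPM in Q140 mice. Its groups did not overlap (0.48, SE 0.041, adjusted p = 6.35e-13). With total counts 4 of the 22 fell, against 2869 of the 19714 genes tested.

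Among 33 neuropeptide, growth factor and receptor genes 11 rose (33.3%, against 8.75% of all genes) and 0 fell, with a median of 0.22. Beside Fst, Inhba, which encodes the activin A subunit that follistatin binds, had a lowest, median and highest level of 7.58, 9.16 and 11.5 CPM in Q140 x Msh3-/- mice, against 3.86, 4.79 and 5.95 CPM in Q140 mice (0.94, SE 0.0854, adjusted p = 2.71e-12). Mas1, a receptor for angiotensin 1-7, had levels of 3.24, 4.88 and 7.11 CPM, against 1.32, 1.84 and 2.28 CPM in Q140 mice (1.37, SE 0.123, adjusted p = 1.92e-12). Igfbp4, an insulin-like growth factor binding protein, rose by 0.44 (SE 0.0532), and all 3 were apart between the groups. Inhba averaged 9.21 ± 1.28 CPM in the Q140 x Msh3-/- mice, against 10.6 ± 1.28 CPM in Msh3-/- and 9.22 ± 1.06 CPM in WT mice (SD, n = 8 each). Without the 3 libraries high in Slc17a7, 11 of the 33 rose.

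Immediate early genes, which neurons switch on with activity, varied widely between mice. Of 23 tested, 5 rose (21.7%, against 8.75% of all genes) and 0 fell, with a median of 0.32, and 0 were apart between the groups. Egr2 spanned 4.82 to 24.9 CPM in the Q140 x Msh3-/- mice and 2.72 to 8.63 CPM in Q140 mice. Ier5 (0.33, SE 0.066), Egr3 (0.31, SE 0.081), Jun (0.26, SE 0.0746) and Ier2 (0.53) were the others that passed, while Fos (0.41) and Arc (0.43) did not. In Msh3-/- minus WT the median of the list was 0.23, with 0 called, and the interaction with Q140 passed for 0 of the 23. For Q140 x Msh3-/- minus Q140 the median was 0.75 in females and −0.08 in males. A fit of the 16 libraries alone called 9 higher, one of females alone 12 and one of males alone 0, and without the 3 libraries high in Slc17a7, 2 of the 23 rose.

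**Figure D3:**
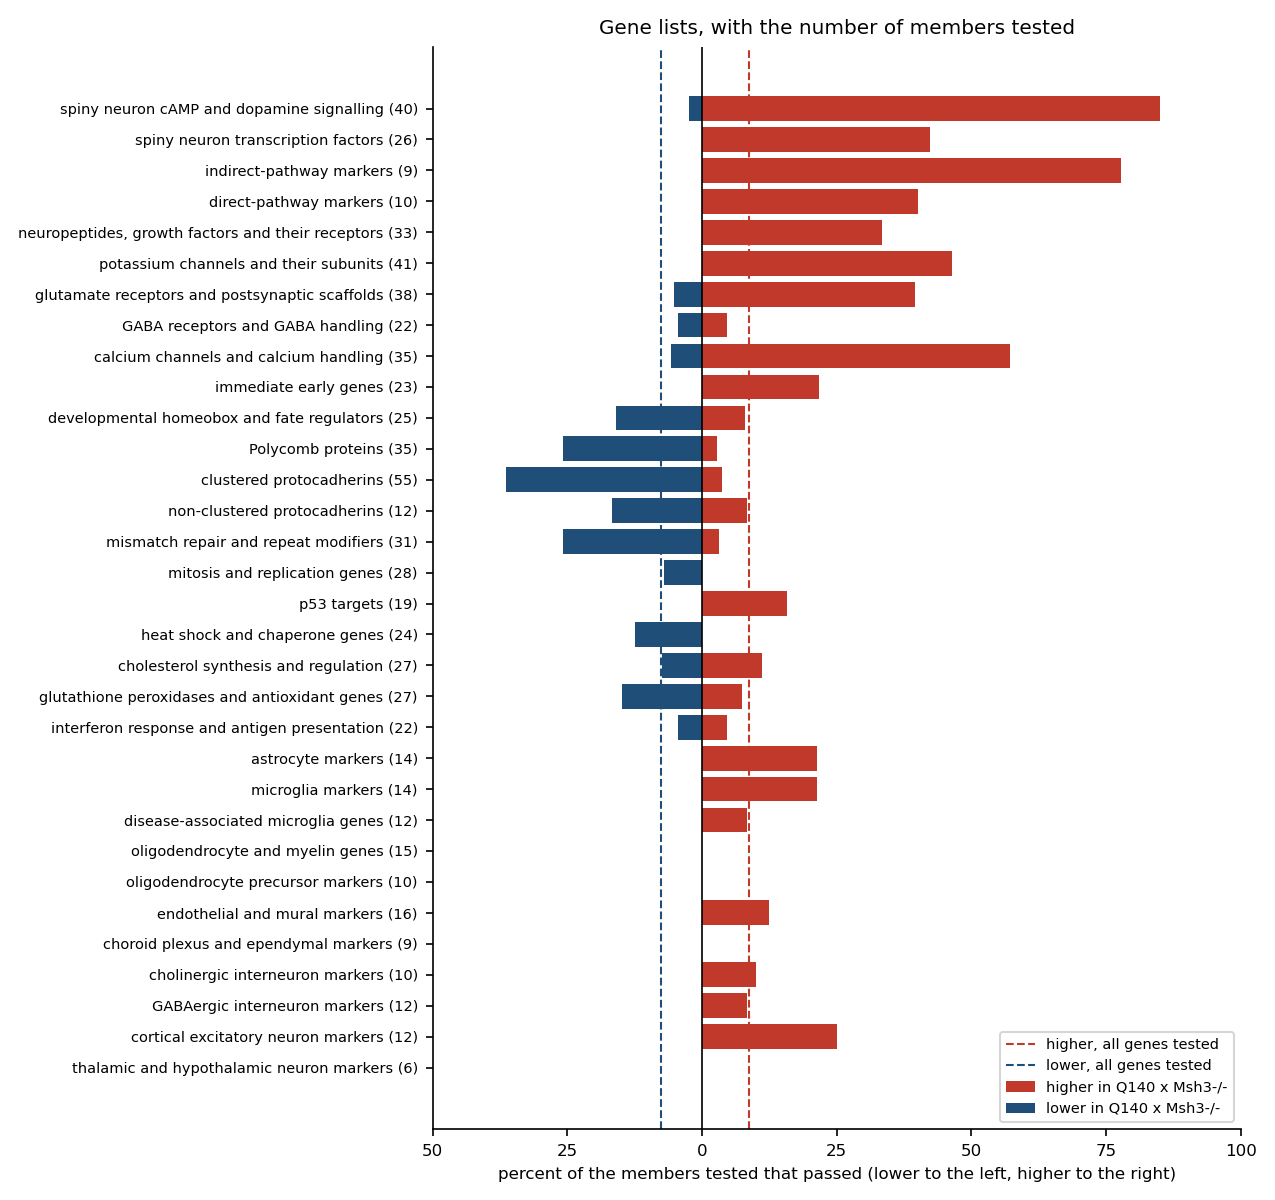
Share of the tested members of each of 32 gene lists that passed as higher (right, red) or lower (left, blue) in Q140 x Msh3-/- than in Q140 mice, with the share of all genes tested as dashed lines at 8.75% higher and 7.57% lower. The cAMP and dopamine signalling, indirect-pathway and calcium lists reach furthest to the right and the protocadherin, Polycomb and mismatch repair lists to the left.

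Regulators of embryonic development were in part too low to test. Of 50 genes listed, 25 had enough counts to be tested, and the others were left out as too low. Of the 25, 4 fell (16%, against 7.57% of all genes) and 2 rose (8%, against 8.75%), with a median of 0.03. Beside Onecut1 and Wt1, whose values are given above, the fallers were Onecut2 and Emx2, so that Emx2 and its antisense partner Emx2os were both lower. The counting settings are not given, so reads from the pair may not be fully told apart. Onecut2 had a lowest, median and highest level of 63.7, 81.5 and 104 CPM in Q140 x Msh3-/- mice, against 96.3, 137 and 151 CPM in Q140 mice (−0.73, SE 0.0924, adjusted p = 8.83e-08). Its mean was 80.1 ± 13.2 CPM in Q140 x Msh3-/-, 134 ± 18.3 CPM in Q140, 109 ± 10.2 CPM in Msh3-/- and 95.6 ± 15.3 CPM in WT mice (SD, n = 8 each). Emx2 had levels of 6.43, 7.57 and 9.36 CPM, against 7.71, 11.1 and 12.7 CPM in Q140 mice, with the ranges overlapping (−0.51, SE 0.08, adjusted p = 3.53e-06). Lhx2 (0.20) and Neurod6 (1.88, SE 0.648, adjusted p = 0.0391) were the risers. Neurod6 marks cortical excitatory neurons, was highest among these 16 mice in the 3 with high Slc17a7, at 2.52, 2.13 and 1.33 CPM, and did not pass without them (0.38). It also did not pass without any one of these 3 (1.52 to 1.77) or without Q140 mouse F1, F2, F4, M1 or M2 (1.70 to 1.95). Without those 3 libraries the numbers were 4 lower and 0 higher.

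Polycomb proteins, which keep developmental genes silent, fell more often than they rose. Of 35 tested, 9 fell (25.7%, against 7.57% of all genes) and 1 rose (2.86%, against 8.75%), while the median log2 fold change was −0.02. Cbx8 encodes a subunit of Polycomb repressive complex 1 that binds methylated histone H3. It had a lowest, median and highest level of 7.66, 9.12 and 11.6 CPM in Q140 x Msh3-/- mice, against 12.9, 15.3 and 18 CPM in Q140 mice. Its groups were apart (−0.68, SE 0.0908, adjusted p = 1.25e-07), as were those of Sfmbt2. The riser was Scmh1 (0.13), a related protein. Bmi1, another subunit of that complex, fell with overlap (−0.17, SE 0.0382, adjusted p = 0.000987). The enzyme Ezh2 (0.10), its paralog Ezh1 (−0.02) and their partner Suz12 (−0.08) did not pass. Leaving out the 3 libraries high in Slc17a7, 6 of the list fell and 0 rose. With the sample-name code as a term 3 of the 35 fell and 0 rose, while 156 of the 19714 genes tested fell and 481 rose.

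Clustered protocadherins, adhesion molecules of which single neurons express different sets, had 20 of 55 members lower and 2 higher, with a median of −0.16. This is 36.4% lower and 3.64% higher, against 7.57% and 8.75% over all genes. The risers were Pcdhac1 (0.39) and Pcdhgb7 (0.17). Close paralogs can share reads in the counting, so single members are uncertain. Pcdhb22 had a lowest, median and highest level of 14.6, 15.3 and 18.3 CPM in Q140 x Msh3-/- mice, against 18.5, 21.8 and 27.3 CPM in Q140 mice, without overlap (−0.49, SE 0.0685, adjusted p = 3.36e-07). Pcdhb21 was also apart (−0.47, SE 0.076), and Pcdhb16 (−0.35, SE 0.062) and Pcdhb3 (−0.50, SE 0.0936) fell with overlap. Of 12 protocadherins outside the clusters, Pcdh20 fell without overlap (−0.81, SE 0.116, adjusted p = 8.27e-07), Pcdh19 fell (−0.35, SE 0.0973) and Pcdh1 rose (0.10, SE 0.0326). Pcdh1 did not pass, at 0.08 to 0.09, when Q140 x Msh3-/- mouse F2, M1 or M3 or Q140 mouse F3 or F4 was left out. Once the 3 libraries high in Slc17a7 were left out, 16 clustered members fell and 0 rose. With the sample-name code as a term 5 of the 55 fell and 0 rose, and their median was −0.14. In that fit 156 of the 19714 genes tested fell and 481 rose.

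Mismatch repair genes and other modifiers of repeat length, Msh3 itself left aside, had 8 of 31 members lower and 1 higher, with a median of −0.08. This is 25.8% lower and 3.23% higher, against 7.57% and 8.75% over all genes. Mlh3 encodes a subunit of the MutLgamma endonuclease. Its levels were 35.9, 37.6 and 38.9 CPM (lowest, median, highest) in Q140 x Msh3-/- mice, against 36.5, 43.8 and 46 CPM in Q140 mice (−0.19, SE 0.0322, adjusted p = 2.1e-05). It averaged 36.9 ± 0.817 CPM in Msh3-/- and 36.8 ± 1.3 CPM in WT mice (SD, n = 8 each). Msh6, whose product acts on single mismatches (−0.14), also fell, as did the polymerase gene Pole (−0.57, SE 0.131). Rfc5, a subunit of the clamp loader, rose (0.43, SE 0.0639). Fan1 (−0.04) and Lig1 (−0.05) did not pass, and 0 members of the list were apart between the groups. In the fit that omits the 3 libraries high in Slc17a7, 4 fell and 1 rose. With the sample-name code as a term 1 of the 31 fell and 1 rose, while 156 of the 19714 genes tested fell and 481 rose.

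In markers of other cell types most genes did not pass. In bulk tissue, fewer cells of a type and less RNA per cell cannot be told apart, which holds for the spiny neuron genes above as well. Of 14 astrocyte markers 3 rose, Slc4a4 (0.20, SE 0.035), Aqp4 (0.28, SE 0.0895) and Atp1b2 (0.18, SE 0.0594). Of 14 microglia markers 3 rose, among them Aif1 (0.32, SE 0.0926) and C1qc (0.16, SE 0.0554). This is 21.4% of each of these lists, against 8.75% of all genes tested. Of 16 endothelial and mural markers 2 rose, Pdgfrb (0.19, SE 0.0544) and Cdh5 (0.21, SE 0.0714). Of 12 disease-associated microglia genes Lpl rose (0.15, SE 0.0509), and of 12 GABAergic interneuron markers Nos1 (0.10, SE 0.0348). Of 10 cholinergic interneuron markers 1 rose. From the endothelial list on, the shares that rose were 8.33% to 12.5%, near that of all genes. In these 6 lists 0 genes fell and 0 were apart between the groups. Without the 3 libraries high in Slc17a7, Slc4a4 passed (0.20) and the other 10 of the 11 genes that rose in these lists did not, in a fit with fewer mice. In the order named, the medians of the 6 lists were 0.08, 0.12, 0.10, 0.11, 0.10 and 0.03 with all libraries. In the fit without the 3 libraries they were 0.09, 0.10, 0.11, 0.09, 0.04 and 0.06. On leaving out single mice, Aqp4 lost its call in 4 cases, Atp1b2 in 7, C1qc in 8, Cdh5 in 6, Lpl in 6 and Nos1 in 8. Among 15 oligodendrocyte genes 0 passed, with the myelin gene Mbp at 2604 ± 146 CPM in the Q140 x Msh3-/- mice, against 2561 ± 186 CPM in the Q140 mice (SD, n = 8 each). Precursor markers (10), choroid plexus and ependymal markers (9) and thalamic and hypothalamic markers (6) also had 0 calls.

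Few genes passed for the same loss of Msh3 without Q140. In Msh3-/- minus WT, 9 genes passed (0.0457%), 2 higher (0.0101%) and 7 lower (0.0355%), and 1187 had an unadjusted p under 0.05 (6.02%). Genes that rose with the loss in Q140 mice had a median log2 fold change of 0.248 there and of −0.000 in Msh3-/- minus WT. Genes that fell had medians of −0.163 and −0.012. Both sets were picked by their calls in the Q140 mice, so the signs and sizes of the first medians reflect that choice. The difference between the 2 effects was tested gene by gene. This interaction passed for 1213 genes (6.15%), of which 806 (4.09%) were more positive with Q140 and 407 (2.06%) more negative. It passed as positive for 27 of the 40 cAMP and dopamine signalling genes, 16 of the 41 potassium channel genes and 6 of the 9 indirect-pathway markers, and as negative for 8 of the 35 Polycomb genes. Penk differed by 0.76 with Q140 and by −0.06 without (interaction 0.81, adjusted p = 2.9e-10), and Sfmbt2 by −1.81 and −0.04 (interaction −1.77, adjusted p = 2.08e-08). Leaving out the 3 libraries high in Slc17a7, the interaction passed for 625 genes, but Msh3-/- mouse F2, at 34.5 CPM of Slc17a7, stayed in that fit. Without all 4 libraries above 25 CPM of Slc17a7, a choice made after seeing the data, it passed for 685 genes, with 1882 for Q140 x Msh3-/- minus Q140 and 8 for Msh3-/- minus WT.

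The 9 genes that passed without Q140 all lay on chromosome 13 near Msh3, and all 9 passed with the same sign in Q140 x Msh3-/- minus Q140. They make up 100% of the first list and 0.28% of the second, and the 2 comparisons share no mouse. Msh3 itself is one of the 9, higher by 1.92 with Q140 and by 2.08 without (interaction −0.16, adjusted p = 0.0395). Cmya5, a muscle-related gene 0.69 Mb from Msh3, averaged 8.24 ± 0.821 CPM in Q140 x Msh3-/-, 13.2 ± 0.706 CPM in Q140, 8.62 ± 0.769 CPM in Msh3-/- and 16.8 ± 0.703 CPM in WT mice (SD, n = 8 each). Its log2 fold change was −0.68 with Q140 and −0.96 without (interaction 0.28, adjusted p = 0.0738). F2r, the thrombin receptor, rose by 0.60 and 0.89, and AW495222 fell by 1.52 and 1.17, with interactions that did not pass (adjusted p = 0.222 and 0.355). Rasgrf2, an exchange factor for Ras, fell by 0.60 with Q140 and by 1.31 without, and here the difference passed (interaction 0.71, adjusted p = 0.0101). Sv2c fell by 0.23 and 0.27, Col4a3bp by 0.23 and 0.20, Map1b by 0.16 and 0.21 and Ankrd34b by 0.15 and 0.34. Ankrd34b kept its call with Q140 when Q140 x Msh3-/- mouse F3, M2 or M3 or Q140 mouse F3, F4 or M1 was left out, and lost it without any one of the other 10 mice.

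Within 10 Mb of Msh3, 10 of 115 tested genes rose and 13 fell in Q140 x Msh3-/- minus Q140, with a median of −0.02, against 8.75% higher and 7.57% lower over all genes. Among those that did not pass without Q140, Fam169a fell by 0.29 with Q140 and changed by 0.01 without (interaction −0.30, adjusted p = 0.00163). Iqgap2, a scaffold of the cytoskeleton, rose by 0.26 with Q140 and was at −0.25 without (interaction 0.51, adjusted p = 0.00103). Once the 3 libraries high in Slc17a7 were left out, its change with Q140 did not pass (0.22). Enc1, an actin-binding protein of neurons, rose without overlap (0.27, SE 0.0662), as did Gfm2, a mitochondrial ribosome recycling factor (0.21, SE 0.0415), and Tnpo1, a nuclear import receptor, fell without overlap (−0.14, SE 0.0317). Cartpt, the CART peptide precursor, rose with Q140, at 2.01 ± 0.624 CPM in the Q140 x Msh3-/- mice, against 0.963 ± 0.339 CPM in the Q140 mice (SD, n = 8 each), and its interaction did not pass (adjusted p = 0.648). Whether sequence carried along with the inactivated allele plays a part in the changes near Msh3 was not tested.

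**Figure D4:**
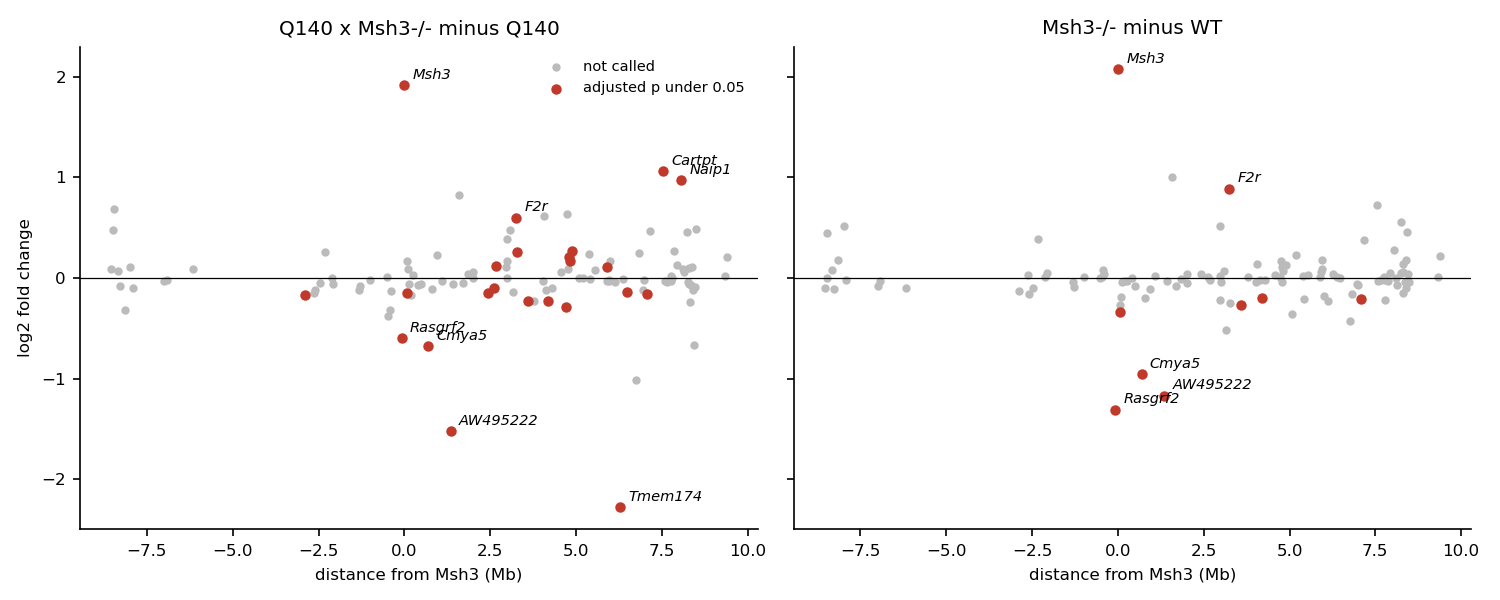
Log2 fold changes of the 115 tested genes within 10 Mb of Msh3 against their distance from it in Mb, for Q140 x Msh3-/- minus Q140 (left) and Msh3-/- minus WT (right), with genes past the threshold in red. The 9 genes called on the right, led by Msh3, Rasgrf2, AW495222, Cmya5 and F2r, are also called on the left, where 23 genes pass.

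Males and females did not differ past the threshold in the effect. The difference between the sexes passed for 0 genes (edgeR quasi-likelihood test), with 730 at an unadjusted p under 0.05 (3.7%). Taken by sex, with 4 mice per group and sex, 2000 genes passed in females (10.1%) and 465 in males (2.36%) in the fit of all libraries. In females 5.97% of genes were higher and 4.17% lower, and in males 1.81% were higher and 0.548% lower. In female mice Penk differed by 0.94 and in male mice by 0.58, Fst by 2.14 and 1.32, Ryr1 by 1.47 and 0.80, and Gabrd by 0.54 and 0.43. The median of the cAMP and dopamine signalling list was 0.38 in females and 0.21 in males. The estimates for these 4 genes were larger in females, but the difference between the sexes did not pass for any of them.

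Genes of the X chromosome fell more often than others. Of 690 tested, 106 fell (15.4%) and 36 rose (5.22%), against 7.29% lower and 8.88% higher among genes elsewhere. Among protein-coding genes, of which 10.3% rose and 9.18% fell in all, 19.5% of those on X fell, against 8.8% of those elsewhere. Gprasp2, which sorts internalised receptors, had a lowest, median and highest level of 98.8, 106 and 119 CPM in Q140 x Msh3-/- mice, against 133, 148 and 160 CPM in Q140 mice, without overlap (−0.47, SE 0.0401, adjusted p = 6.44e-13). Its mean was 107 ± 6.77 CPM in Q140 x Msh3-/-, 148 ± 8.64 CPM in Q140, 95.2 ± 6.03 CPM in Msh3-/- and 94.1 ± 4.4 CPM in WT mice (SD, n = 8 each). The neighbouring Gprasp1 fell by 0.28 (SE 0.03). Genes share mice and are not independent, so the shares carry no test. In the fit by sex, 10.1% of X genes fell in females, against 3.96% elsewhere, and 2.03% in males, against 0.494%. In the fit that omits the 3 libraries high in Slc17a7, 9.35% of X genes fell, against 3.5% elsewhere.

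**Figure D5:**
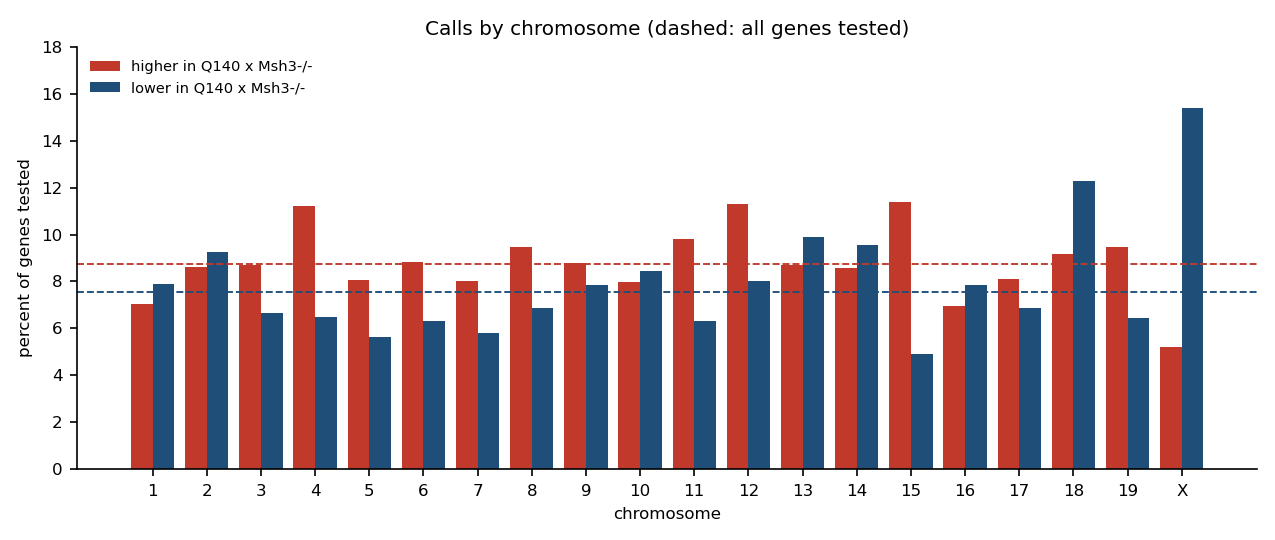
Percent of the genes tested on each chromosome that passed as higher (red) or lower (blue) in Q140 x Msh3-/- than in Q140 mice, with the shares of all genes as dashed lines. The X chromosome has the tallest bar for lower genes, at 15.4%, and chromosome 18, which holds the clustered protocadherins, follows at 12.3% lower.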

How the data were processed

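Striatal RNA of 48 mice was sequenced from stranded libraries, 1 library per mouse. The authors deposited raw counts per gene, with STAR 2.7.5c, SAMtools 1.10, HTSeq 0.12.3 and build GRCm38 (mm10) named in the submitters' processing notes without roles. The authors also deposited FPKM values. Within each gene these were proportional to the counts divided by library total, within a relative deviation of 8.5e-08 over 16336 genes compared. Neither the annotation release nor the counting settings could be taken from the sources used here, so paralogs, overlapping genes and antisense pairs are uncertain. Of 48795 gene IDs, 48349 were found in GENCODE M21, and 27 symbols that had been turned into dates were restored.

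Genotype groups came from the labels. Counts were fitted with edgeR 4.0.16 in R 4.3.3 (TMM scaling, filterByExpr with a minimum count of 10, quasi-likelihood test, genotype and sex as terms, all 48 libraries, 41 residual degrees of freedom), and p-values were Benjamini-Hochberg adjusted over the 19714 genes tested, with 29081 left out as low. The threshold was 0.05, fold changes are on the log2 scale, and the SE is the absolute log2 fold change divided by the square root of F. The procedure was tested on simulated data. The labels give each sample a name code and a plate well but do not say how the mice are related. The p-values treat the mice as independent, with a spread estimated over all 48 libraries. Plate columns were not balanced between the 2 groups. Column 04 held Q140 but no Q140 x Msh3-/- mice, and columns 01 and 06 held Q140 x Msh3-/- but no Q140 mice. Library totals were 38.9 to 60.9, in units of 1000000 counts. DESeq2 1.42.0 and limma 3.58.1 (limma on log2(FPKM + 0.1)) were alternatives, with other scalings, filters, terms and left-out libraries.

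Genes were named by rule: Msh3, Htt and Onecut1, the 14 largest rises and 14 largest falls that passed and had a level of 1 or more in mean log2 CPM, the 6 lowest p among rises and among falls, genes that passed within 10 Mb of Msh3, and up to 4 members of each list with the lowest p (2 with the highest level for a list with no call). Other list members given with a value were chosen after their values were seen. The comparison, the gene lists and Onecut1 were chosen with earlier results of these data known. Q140 x Msh3-/- minus Q140 and Q140 minus WT share the Q140 mice, so levels of WT mice are given beside the others as values only. Some genes that the rule names are not reported here.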

Additional observations from a re-analysis of the deposited data

Results flagged for a closer look

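The effect of losing both Msh3 alleles differed with and without Q140 for 1213 genes, by the edgeR quasi-likelihood test of the difference itself, as described above.

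In 7 of the 278 groups of 8 mice examined (2.52%), 1 mouse lay farther from the rest than Dixon's 95% critical value of 0.526 allows, and chance gives about 1 in 20. Sfmbt2 stood at 19.3 CPM in Q140 mouse F3, with the other Q140 mice at 10.6 to 14.5 CPM. Col4a3bp stood at 102 CPM in Q140 mouse F2 (others 86.9 to 93.6 CPM), Emx2 at 7.71 CPM in Q140 mouse M2 (others 10.4 to 12.7 CPM) and Pdgfrb at 20.6 CPM in Q140 mouse F4 (others 23.9 to 25.9 CPM). Among Q140 x Msh3-/- mice, Utp15, a ribosome biogenesis factor, stood at 29.1 CPM in mouse F1 (others 33.2 to 36.5 CPM), Ier5 at 48.7 CPM in mouse F2 (others 32.7 to 38.9 CPM) and Rfc5 at 6.77 CPM in mouse F4 (others 8.73 to 10.5 CPM). Emx2 is apart between the groups but for that Q140 mouse, and Ier5 was highest in the mouse with the highest Slc17a7.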

How the results depend on the processing

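The 3217 genes called became 3211 with DESeq2's size factors, 3396 with DESeq2, 3257 with only the 16 libraries, 3060 with no sex term and 2640 with no filter on low counts. With the plate column of the well as a term there were 3093. Leaving out 1 mouse at a time gave 2696 to 3369 genes, 1484 to 1781 higher and 1166 to 1634 lower. The replicate numbers are not said to pair the mice. Of 8 same-number correlations 0 exceeded 0.1, and 1 of 8 mice correlated best with its own number, which cannot exclude a pairing. With the replicate number as a block 3224 genes passed, 1726 higher and 1498 lower. Lower genes numbered 2869 with total counts and 2871 with limma on FPKM. Females alone gave 1649 genes (1041 higher, 608 lower) and males alone 518 (407 higher, 111 lower), with fewer samples. The sample-name code as a term gave 637 genes (481 higher, 156 lower), 5 genes for Msh3-/- minus WT and 243 for the interaction. Without the 3 libraries high in Slc17a7 there were 1873 (1126 higher, 747 lower) and 625 for the interaction, and without the 4 libraries above 25 CPM of Slc17a7 in any of the 4 groups 1882 (1117 higher, 765 lower) and 685. The causes were not tested.

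With total counts, 1283 of the 19714 genes tested were higher and 2869 lower. In that fit list members called numbered 6 higher for transcription factors, 1 for clustered protocadherins, antioxidant genes and endothelial markers, and 0 for Polycomb, non-clustered protocadherin, interferon, disease-associated microglia, cholinergic and GABAergic interneuron genes. Lower were 7 of 24 chaperones, 7 of 27 antioxidant genes, 4 of 38 glutamate genes and 4 of 22 GABA genes. Others were 3 of 10 oligodendrocyte precursor markers, 2 of 33 neuropeptide genes, and 1 each of 19 p53 targets, 10 cholinergic and 6 thalamic markers. Without the 3 libraries high in Slc17a7, higher members numbered 11 for calcium genes, 6 for transcription factors, 2 for immediate early genes, 1 for antioxidant genes and astrocyte markers, and 0 for developmental, Polycomb, clustered and non-clustered protocadherin, interferon, microglia, disease-associated microglia, endothelial, cholinergic and GABAergic interneuron genes. Lower members then numbered 4 for mismatch repair, 1 for calcium, mitosis and antioxidant genes, and 0 for GABA, cholesterol and interferon genes. Over all genes that fit called 1126 higher and 747 lower.

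Of 139 named genes, 0 changed sign in any setting run, and 23 lost their call when some mouse was left out. With the sample-name code as a term 56 lost it, in males alone 67 and in females alone 32.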

Other observations

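Among p53 targets 3 of 19 rose (15.8%, against 8.75% of all genes) and 0 fell, with a median log2 fold change of −0.00. Plk2, a kinase induced by synaptic activity and stress, had a lowest, median and highest level of 255, 270 and 289 CPM in Q140 x Msh3-/- mice, against 196, 217 and 233 CPM in Q140 mice (0.32, SE 0.0425, adjusted p = 8.83e-08). Its groups were apart, as were those of Bbc3, which encodes the apoptosis activator PUMA (0.64, SE 0.142). Cdkn1a, the cell cycle inhibitor p21, rose with overlap (0.41, SE 0.129) and did not pass without Q140 x Msh3-/- mouse M1 (0.36) or Q140 mouse M4 (0.37). Of 28 mitosis and replication genes 2 fell and 0 rose, the spindle genes Tpx2 (−0.70, SE 0.124) and Cenpe (−0.41, SE 0.124). The share that fell, 7.14%, was near the 7.57% of all genes, and the median of the list was 0.06.

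Over all genes tested, 8.75% rose and 7.57% fell. Of 24 heat shock and chaperone genes 3 fell (12.5%) and 0 rose. The 3 were Hspa8 (−0.20, SE 0.0592), Dnaja1 (−0.17, SE 0.043) and Hsp90aa1 (−0.17, SE 0.0469). Of 27 antioxidant genes Gpx6 and Cat rose (7.41%) and 4 fell (14.8%), among them the mitochondrial superoxide dismutase Sod2 (−0.13, SE 0.0282). Of 27 cholesterol genes 3 rose (11.1%) and 2 fell (7.41%), near the shares of all genes, and the neuronal cholesterol hydroxylase Cyp46a1 was among the risers (0.16, SE 0.0348). Of 22 interferon and antigen presentation genes 1 rose, Psmb8 (0.40, adjusted p = 0.0499), and 1 fell, which is 4.55% each and below the shares of all genes. Psmb8 lost its call without any one of 9 mice.

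Longer protein-coding genes were called higher more often. The share that rose was 8.96% for genes up to 10 kb, 8.77% from 10 to 30 kb, 10.2% from 30 to 100 kb, 14.8% from 100 to 300 kb and 20.2% above 300 kb. The share that fell was 6.59%, 9.35%, 11%, 9.87% and 7.98% in the same classes. The median level also increased with length, from a log2 CPM of 3.39 in the shortest class to 5.48 in the longest, and its part in the shares was not tested. Of 712 genes annotated as antisense, 46 rose (6.46%, against 8.75% of all genes tested) and 9 fell (1.26%, against 7.57%).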
